A study of Rattus norvegicus with 8 samples.

Results

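Matrix metalloproteinases (MMPs) and the tissue inhibitors that hold them in check (TIMPs) were examined in burned rat skin at the level of transcripts. The 9 genes were taken from a list of Ensembl rat gene identifiers made with earlier results of these data in view, and all 9 were found among the 26404 identifiers of the deposited count table. They were the gelatinases Mmp2 and Mmp9, the stromelysin Mmp3, the collagenase Mmp13, the membrane-anchored Mmp14, the related protease Adamts1, and the inhibitors Timp1, Timp2 and Timp3. The symbols came with that list. Neither the count table nor the RefSeq rat gene table used here pairs Ensembl identifiers with symbols, so the names were not checked against an annotation. For the same reason the labelled tissue was not checked against marker genes, and other genes of the same families were not analysed here.

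Poly(A)-enriched RNA was sequenced from skin of the dorsal hind paw of Sprague-Dawley rats weighing 125 to 200 g, whose age and sex the sources do not state. Burn libraries (4) came from a hind paw dipped in saline at 60 °C for 2 min, which gives a deep partial-thickness burn. Control libraries (4) came from the opposite paw, dipped in saline at room temperature. Both paws belonged to animals under urethane anaesthesia and both held microdialysis probes, so the control is unburned skin of a burned, anaesthetised animal, not skin of an uninjured one. Neither the time from burn to excision nor the pairing of paws to animals is stated in the sources used here. P-values therefore measure only the spread between these samples, which may be partly technical.

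Enzymes of the MMP family use a zinc ion to cut collagens, gelatin and other proteins of the extracellular matrix. They are made as inactive proenzymes and take part in clearing damaged dermis, in cell migration and in remodelling of a wound. TIMPs bind the active site of these enzymes, and TIMP2 also links proMMP2 to MMP14 on the cell surface, where MMP14 cuts and activates it. In skin, fibroblasts are a known source of Mmp2, Mmp14, Timp2 and Timp3, whereas Mmp9, Mmp3, Mmp13, Adamts1 and Timp1 are known as genes that injury and inflammatory signals can induce.

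Mmp2 and Mmp14 transcripts were lower in burned skin than in control skin, by 5.19-fold and 3.34-fold, and were the members that passed the test (edgeR quasi-likelihood test, Benjamini-Hochberg adjusted p under 0.05 over all 14240 genes tested, adjusted p = 0.0194 and 0.0339). Mmp3 and Timp2 were also lower in every burn library than in every control library, but their adjusted p-values of 0.0541 and 0.0596 missed the threshold. For Mmp9, Mmp13, Adamts1, Timp1 and Timp3 the groups overlapped. Thus 2 of the 9 members were called lower, where 10.0% of all genes tested were called lower. No member was called higher, where 11.9% of all genes tested were. DESeq2 and limma-voom also called 0 members higher, where they called 16.7% and 10.8% of all genes higher. DESeq2 gave Adamts1, at a log2 fold change of 0.58, no adjusted p and so could not call it. At an unadjusted p under 0.05 edgeR gave 4 members lower and 0 higher, where it gave 17.4% of all genes lower and 20.4% higher. DESeq2 called 4 members lower, where it called 15.5% of all genes lower, and limma-voom called 3, where it called 11.7%. The groups did not overlap for 4 of the 9 members, all of them lower in burn, against 31.0% of all genes tested in either direction and 15.6% in the direction lower in burn. The median log2 fold change was -1.02 over the 9 members and 0.06 over all genes tested. In whole-skin RNA, fewer cells of a type and less RNA per cell cannot be told apart.

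Libraries held 13693811 to 18738652 counts in burn and 17824830 to 26837925 in control. Burn replicate 3 stood apart, with a count for 15354 genes where the other 7 libraries had one for 17322 to 17547. Without it edgeR called Mmp2, Mmp14 and Timp2 lower, 3 of 9 members, where it called 13.3% of all genes lower, and 0 members higher. Levels are given as CPM, the share of a library's counts that a gene takes, scaled up to a fixed total, with TMM (trimmed mean of M-values) factors applied. Gene length is not part of this unit, so levels are compared between libraries for 1 gene and not between genes.

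Promoter sequences were available for 6 of the 9 genes, from RefSeq on the GRCr8 build, and cover 250 bases before to 50 bases after the annotated start. Those of Mmp3 and Mmp13, which injury is known to induce through the transcription factor AP-1, and of Timp1 and Timp2 are shown. Burn and control libraries overlapped for Timp1 and not for Timp2. With all libraries, TMM factors and group as the only term, edgeR called neither. With 1 surrogate variable added to that fit, Timp2 was called lower (edgeR adjusted p = 0.00169). Capitals mark motifs that were searched on both strands. The AP-1 motif was TGANTCA, and an AP-1 variant known from the mouse Timp1 promoter was TGAGTAA. The core of the TATA box was TATAAA and that of the GC box, which binds factors of the SP family, was GGGCGG. None of these matches overlapped another in the 4 sequences. They lie at chr8:12925031-12925330 (plus strand) for Mmp3, chr8:12782579-12782878 (plus strand) for Mmp13, chrX:3771073-3771372 (minus strand) for Timp1 and chr10:104089165-104089464 (minus strand) for Timp2.
Mmp3: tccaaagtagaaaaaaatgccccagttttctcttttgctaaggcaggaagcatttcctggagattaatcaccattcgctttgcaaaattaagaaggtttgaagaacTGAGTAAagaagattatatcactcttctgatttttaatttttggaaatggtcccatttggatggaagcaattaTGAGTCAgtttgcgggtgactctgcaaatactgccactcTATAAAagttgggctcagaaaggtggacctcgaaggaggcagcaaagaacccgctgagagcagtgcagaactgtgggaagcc
Mmp13: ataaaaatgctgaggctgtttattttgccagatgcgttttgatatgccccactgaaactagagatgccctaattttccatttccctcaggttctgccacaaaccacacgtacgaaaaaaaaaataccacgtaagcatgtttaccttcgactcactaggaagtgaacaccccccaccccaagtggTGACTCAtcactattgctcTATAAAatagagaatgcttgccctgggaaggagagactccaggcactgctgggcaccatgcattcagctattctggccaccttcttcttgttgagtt
Timp1: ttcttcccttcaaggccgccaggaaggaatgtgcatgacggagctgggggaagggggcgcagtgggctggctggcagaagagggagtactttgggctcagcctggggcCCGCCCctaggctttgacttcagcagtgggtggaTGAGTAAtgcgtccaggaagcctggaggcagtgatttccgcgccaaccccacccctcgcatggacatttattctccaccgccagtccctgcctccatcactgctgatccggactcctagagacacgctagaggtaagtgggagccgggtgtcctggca
Timp2: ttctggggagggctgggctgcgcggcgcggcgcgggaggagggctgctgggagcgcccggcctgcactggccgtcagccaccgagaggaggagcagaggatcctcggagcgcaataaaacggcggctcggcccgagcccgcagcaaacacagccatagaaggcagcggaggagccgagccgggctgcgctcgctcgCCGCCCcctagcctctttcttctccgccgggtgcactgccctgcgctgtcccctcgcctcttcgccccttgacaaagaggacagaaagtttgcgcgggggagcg

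The Mmp3 promoter held TGAGTCA from 71 to 65 bases before the start, the AP-1 variant from 144 to 138 bases before it and a TATA box from 32 to 27 bases before it. The Mmp13 promoter held TGACTCA from 66 to 60 bases and a TATA box from 47 to 42 bases before the start. The Timp1 promoter held the AP-1 variant from 108 to 102 bases before the start and a GC box, and no TATA box. The Timp2 promoter held a GC box from 54 to 49 bases before the start and none of the other motifs. Of the 2 remaining promoters, that of Adamts1 held the letters TATAAA from 70 to 65 bases before the start, and 2 GC boxes. That of Timp3 held 3 GC boxes, and neither AP-1 motif was found in these windows. Among all 33469 promoters of the same length, 7.33% held the AP-1 motif, 2.9% its variant, 14.2% the TATA box and 33.1% the GC box. Of the 3 genes with an AP-1 motif or its variant in this window, Mmp3 was lower in all burn libraries, and Mmp13 and Timp1 did not separate the groups. A match is a description of letters and not of binding. The promoters of Mmp2, Mmp9 and Mmp14 are not shown.

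Mmp2 (ENSRNOG00000016695) encodes gelatinase A, which cuts gelatin and basement membrane collagen. Its level in burn replicates 1 to 4 was 48.6, 128, 27.9 and 186 CPM, and in control replicates 1 to 4 it was 503, 499.8, 357 and 668 CPM. The highest burn library therefore lay at 0.522 of the lowest control library, and the burn libraries ranged over 6.69-fold where the control libraries ranged over 1.87-fold. The means were 97.6 ± 73.1 CPM in burn and 507 ± 127 CPM in control (SD, n = 4 each). The fitted log2 fold change was -2.38 (SE 0.56, 95% interval -3.64 to -1.12, edgeR adjusted p = 0.0194). Only 0.983% of the genes tested, 140 of 14240, had a lower log2 fold change. Without burn replicate 3 it was -2.07 (edgeR adjusted p = 0.013). The call was lost, with an adjusted p above 0.05, when burn replicate 1, control replicate 2 or control replicate 4 was left out (0.0516, 0.0550 and 0.0543 by edgeR), with the log2 fold change at -2.15, -2.39 and -2.22.

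Mmp14 (ENSRNOG00000010947) encodes the membrane-anchored MT1-MMP, which cuts fibrillar collagen at the cell surface and activates proMMP2. Burn replicates 1 to 4 had 56.6, 145, 44.9 and 200.1 CPM of it, and control replicates 1 to 4 had 278, 369.7, 307 and 537 CPM. The order of the burn libraries was the same as for Mmp2, with replicate 3 lowest and replicate 4 highest. The means were 112 ± 73.9 CPM in burn and 373 ± 116 CPM in control (SD, n = 4 each), with a log2 fold change of -1.74 (SE 0.48, 95% interval -2.83 to -0.65, edgeR adjusted p = 0.0339). The call was kept without burn replicate 2, 3 or 4 (log2 fold change -1.48 and edgeR adjusted p = 0.0353 without replicate 3) and lost without burn replicate 1 or when any control library was left out, where the edgeR adjusted p was 0.0605 to 0.0913 and the log2 fold change -1.87 to -1.51.

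Mmp3 (ENSRNOG00000032626) encodes stromelysin 1, which cuts proteoglycans and other matrix proteins and activates several proMMPs, and its promoter held an AP-1 motif. Its level was 6.34, 29.8, 4.78 and 50.5 CPM in burn replicates 1 to 4, against 92.7, 133, 72.7 and 111 CPM in control replicates 1 to 4. The groups were fully apart, with burn below control, and the burn libraries ranged over 10.6-fold where the control libraries ranged over 1.82-fold. The fitted log2 fold change was -2.16 (SE 0.69, 95% interval -3.73 to -0.59), and the edgeR adjusted p of 0.0541 did not pass. DESeq2 and limma-voom placed Mmp3 past the threshold, at adjusted p-values of 0.00446 and 0.0197. With 1 library left out the edgeR adjusted p was 0.0254 without burn replicate 4, 0.0519 and 0.0602 without burn replicates 3 and 2, 0.103 without burn replicate 1 and 0.0825 to 0.128 without a control replicate.

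**Figure D1:**
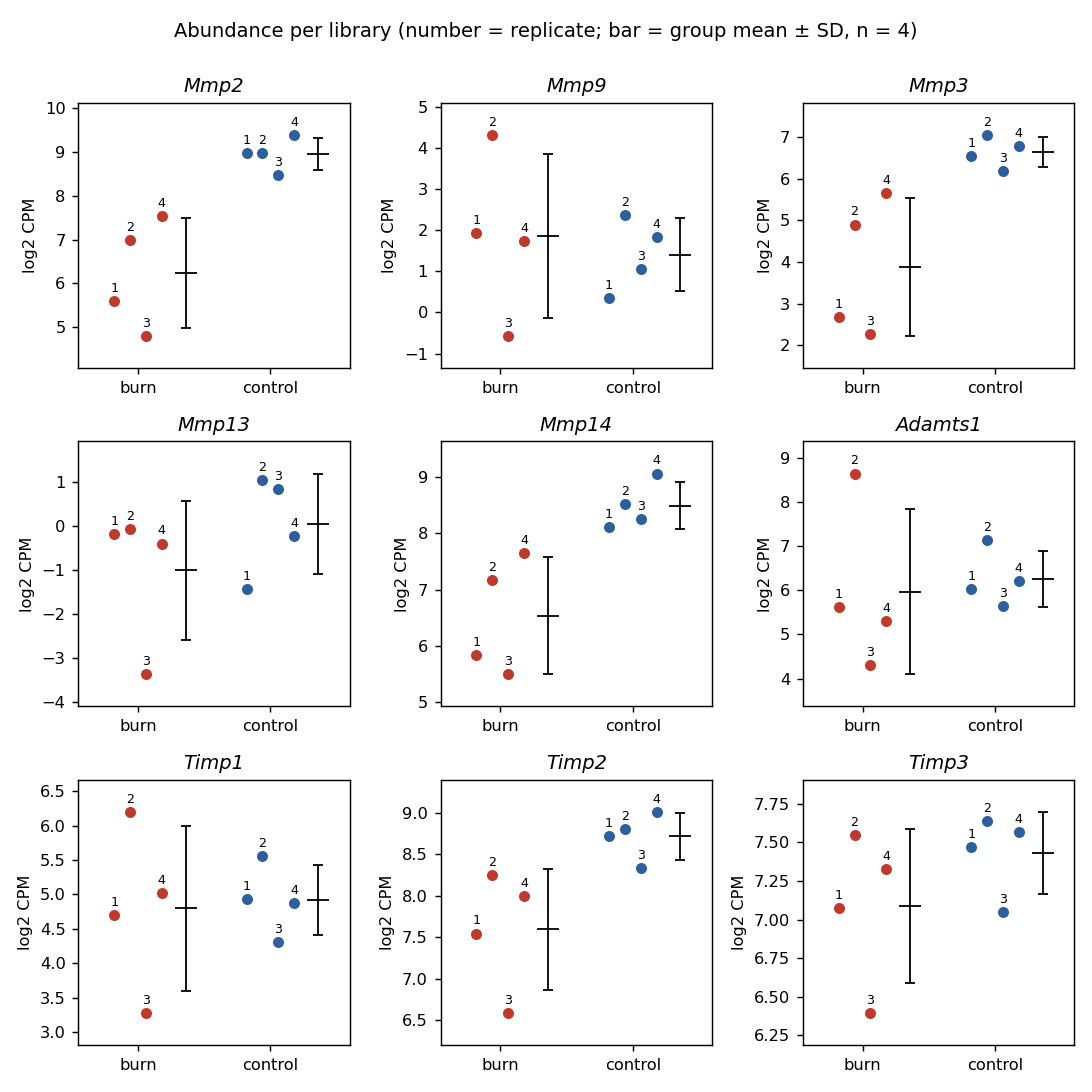
Abundance of the 9 genes in log2 CPM (TMM-scaled, prior count of 2) on the vertical axis, 1 point per library with its replicate number, burn in red and control in blue, and a bar for the group mean and SD (n = 4). The burn points of Mmp2, Mmp3, Mmp14 and Timp2 all lie below the control points, and burn replicate 3 is the lowest burn library in all 9 panels under this scaling.

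Of the members known for induction after injury, none passed the edgeR test of all libraries with TMM factors and group as the only term. Mmp3 was called lower in burn by DESeq2 and limma-voom, as given above. Mmp9 (ENSRNOG00000017539) encodes gelatinase B, which neutrophils and migrating keratinocytes are known to make. Burn replicates 1 to 4 had 3.74, 19.7, 0.577 and 3.25 CPM of it, and control replicates 1 to 4 had 1.17, 5.09, 1.98 and 3.44 CPM. Burn replicate 2 was above all other libraries, burn replicate 3 was below all of them, and the other 2 burn libraries lay within the control range. The log2 fold change was 1.22 (SE 0.91, 95% interval -0.83 to 3.27, edgeR adjusted p = 0.357). Without burn replicate 2 it was -0.23 (edgeR adjusted p = 0.824), so the sign rests on that library.

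Adamts1 (ENSRNOG00000001607) encodes a secreted protease that cuts the proteoglycans versican and aggrecan and belongs to a family related to the MMPs. Its level in burn replicates 1 to 4 was 48.9, 399, 19.6 and 39.6 CPM, against 65.1, 140.5, 49.7 and 74.2 CPM in control replicates 1 to 4. Burn replicate 2 exceeded every control library and the other 3 burn libraries lay below every control library. The log2 fold change was 0.62 (SE 0.87, 95% interval -1.34 to 2.58, edgeR adjusted p = 0.634) with all libraries and -1.20 (edgeR adjusted p = 0.0675) without burn replicate 2. DESeq2 gave Adamts1 no adjusted p, and limma-voom gave a log2 fold change of the opposite sign, -0.30.

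Mmp13 (ENSRNOG00000008478) encodes the main interstitial collagenase of rodents. It was scarce in all libraries, with 9, 13, 0 and 11 counts in burn replicates 1 to 4, against 7, 57, 34 and 21 counts in control replicates 1 to 4. The 0 counts in burn replicate 3 allow a level of up to 0.157 CPM, taking 3 counts as the limit. The other 3 burn libraries, at 0.662 to 0.861 CPM, lay within the control range of 0.273 to 1.97 CPM. The log2 fold change was -1.04 with a 95% interval of -3.13 to 1.05 (edgeR adjusted p = 0.443).

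**Figure D2:**
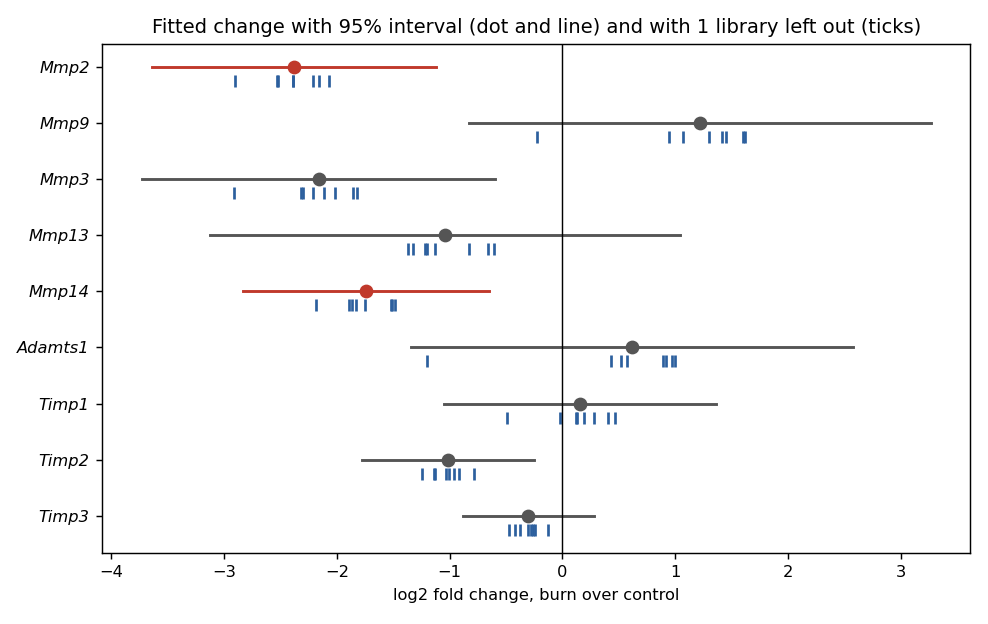
Log2 fold change, burn over control, of the 9 genes on the horizontal axis, with the edgeR estimate as a dot, its 95% interval as a line (4 libraries in each group) and the estimates with 1 library left out as ticks beneath. Red marks the 2 genes past the adjusted threshold, Mmp2 at -2.38 and Mmp14 at -1.74, and the ticks of Mmp9, Adamts1 and Timp1 fall on both sides of 0.

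None of the 3 inhibitors passed the edgeR test that Mmp2 and Mmp14 passed, and differences between the inhibitors were not tested. Timp2 (ENSRNOG00000003148), the inhibitor that takes part in the activation of proMMP2, had 186, 304, 96.1 and 256 CPM in burn replicates 1 to 4, against 421, 446, 322 and 515 CPM in control replicates 1 to 4. All burn libraries were below all control libraries, though burn replicate 2 reached 0.944 of the lowest control library. The log2 fold change was -1.02 (SE 0.34, 95% interval -1.78 to -0.26, edgeR adjusted p = 0.0596). It passed the threshold without burn replicate 3 (log2 fold change -0.78, edgeR adjusted p = 0.0334) or burn replicate 2, and by DESeq2 (adjusted p = 0.0136), but not by limma-voom (adjusted p = 0.0517). The edgeR adjusted p was 0.132 without burn replicate 1, 0.0765 without burn replicate 4 and 0.0772 to 0.142 without a control replicate.

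Timp3 (ENSRNOG00000004303), which is bound to the matrix and also inhibits ADAMTS proteases, had 135, 187, 84.1 and 160.4 CPM in burn replicates 1 to 4, against 178, 199, 132 and 189.7 CPM in control replicates 1 to 4. Burn replicate 3 alone lay below the control range. The log2 fold change was -0.30 (SE 0.26, 95% interval -0.88 to 0.28, edgeR adjusted p = 0.420), the narrowest interval of the 9 members. Timp1 (ENSRNOG00000010208), a secreted inhibitor that binds proMMP9, had 25.9, 73.4, 9.61 and 32.4 CPM in burn replicates 1 to 4, against 30.4, 47.3, 19.7 and 29.4 CPM in control replicates 1 to 4. Burn replicate 2 was above and burn replicate 3 below every control library. Its log2 fold change of 0.16 (95% interval -1.05 to 1.36, edgeR adjusted p = 0.857) turned negative, to -0.17, when libraries were scaled by total counts alone, and to -0.49 without burn replicate 2. In the GRCr8 annotation Timp1 overlaps Syn1, which is on the opposite strand, Timp3 overlaps Syn3 and Timp2 overlaps Cep295nl. Cep295nl is on the same strand as Timp2. How the counting treated strand and overlapping genes is not given, so reads of these pairs may not have been told apart.

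The balance within the TIMP group was then read as a count ratio inside each library, which does not depend on library scaling. These ratios were chosen after the values were seen and were not tested. The share of all gene pairs whose ratios do not overlap between groups was not computed. For single genes it was 31.0% of those tested. The log2 ratio of Timp3 to Timp2 was -0.70 to -0.19 over the burn group and -1.44 to -1.16 over the control group, with no overlap. The log2 ratio of Timp1 to Timp2 averaged -2.80 ± 0.54 in burn and -3.80 ± 0.40 in control (SD, n = 4 each), with burn replicate 3 at -3.32 below control replicate 2 at -3.24. The Timp3 to Timp2 ratio was thus higher in every burn library than in any control library. Among the proteases, the log2 ratio of Mmp2 to Mmp14 was -0.69 to -0.10 in burn and 0.22 to 0.86 in control, also without overlap, whereas that of Mmp3 to Mmp2 overlapped, at -2.93 to -1.88 in burn and -2.59 to -1.91 in control.

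Ratios of a protease to an inhibitor it is known to meet were compared for 5 pairs with two-sided exact permutation tests (70 possible divisions into groups of 4, smallest possible p 0.0286). These divisions treat all libraries as independent, though burn and control paws may come from the same animals. With 5 pairs adjusted together, 3 would have to reach that smallest p to pass 0.05. The log2 ratio of Mmp2 to Timp2 was -1.94, -1.25, -1.78 and -0.46 in burn replicates 1 to 4, against 0.26, 0.16, 0.15 and 0.38 in control replicates 1 to 4. Every burn library thus had a lower ratio than any control library. For this pair and the next, the share of all gene pairs that separate the groups was not computed. Among single genes 31.0% of those tested did, and Mmp2, Mmp3 and Timp2 each did so alone. The difference of means was -1.59, a 3.02-fold lower ratio in burn (exact permutation p = 0.0286, adjusted p = 0.0714). The log2 ratio of Mmp3 to Timp1 was -2.02, -1.30, -1.004 and 0.64 in burn replicates 1 to 4, against 1.61, 1.49, 1.88 and 1.92 in control replicates 1 to 4. All burn libraries again lay below all control libraries, with means of -0.92 ± 1.12 in burn and 1.73 ± 0.21 in control (SD, n = 4 each; exact permutation p = 0.0286, adjusted p = 0.0714).

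For the other 3 pairs the groups overlapped. The log2 ratio of Mmp14 to Timp2 averaged -1.06 ± 0.56 in burn and -0.22 ± 0.29 in control (SD, n = 4 each; exact permutation p = 0.0571, adjusted p = 0.0952), with burn replicate 4 inside the control range. That of Mmp9 to Timp1 averaged -2.99 ± 0.89 in burn and -3.57 ± 0.74 in control (SD, n = 4 each; exact permutation p = 0.4, adjusted p = 0.5). That of Adamts1 to Timp3 averaged -1.12 ± 1.50 in burn and -1.18 ± 0.45 in control (SD, n = 4 each; exact permutation p = 1). Its burn mean rested on replicate 2, at 1.09, while burn replicates 1, 3 and 4 were at -1.46, -2.10 and -2.02, each below all control libraries. Without burn replicate 2 the difference of means was -0.68. Without burn replicate 3 the differences were -1.45 for Mmp2 to Timp2 and -2.62 for Mmp3 to Timp1. With all libraries they were -1.59 and -2.65.

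**Figure D3:**
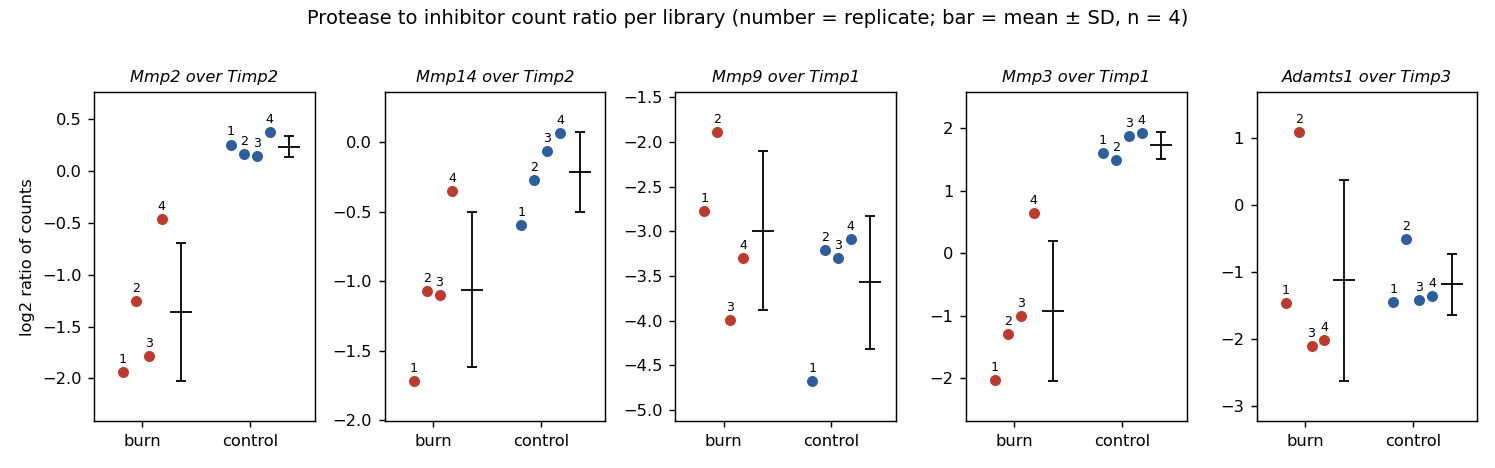
Log2 ratio of protease to inhibitor counts (0.5 added to each count) on the vertical axis for 5 pairs, 1 point per library with its replicate number, burn in red and control in blue, and a bar for the group mean and SD (n = 4). Burn and control points are separated for Mmp2 over Timp2 and Mmp3 over Timp1, and burn replicate 2 stands alone at 1.09 for Adamts1 over Timp3.

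The burn libraries differed from one another. For Mmp2, Mmp3 and Mmp14 the order under TMM scaling was replicate 3, 1, 2, 4 from lowest to highest. Measured from the control mean, the log2 CPM of Mmp2 was lower by 4.15, 3.34, 1.95 and 1.41 in those replicates, and that of Mmp3 by 4.36, 3.96, 1.74 and 0.98. For Mmp9, Mmp13 and Adamts1 the order was replicate 3, 4, 1, 2, and for Timp1, Timp2 and Timp3 it was replicate 3, 1, 4, 2. For these 6 members burn replicate 2 was thus the highest burn library, where it was the highest for 33.7% of all genes tested. Burn replicate 4 was the highest for the other 3, where it was the highest for 16.8% of all genes tested. Without burn replicate 3 the log2 fold changes of the members that edgeR did not call were 1.602 for Mmp9, -1.82 for Mmp3, -0.61 for Mmp13, 0.98 for Adamts1, 0.47 for Timp1 and -0.12 for Timp3. In burn replicate 2 the shift from the control mean was 2.91 log2 units for Mmp9, 2.39 for Adamts1 and 1.28 for Timp1, beside -1.95 for Mmp2 in the same library.

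Under TMM scaling burn replicate 3 was the lowest burn library for all 9 members, where it was lowest for 39.8% of all genes tested. With scaling by total counts alone it was lowest for 7 of 9, where it was lowest for 23.6% of all genes tested. Burn replicate 1 was then lowest for Mmp3 and Mmp14. The SD of log2 CPM was larger among burn than among control libraries for all 9 members, and for 84.0% of all genes tested. It was 1.65 in burn and 0.37 in control for Mmp3 (n = 4 each), and 0.50 in burn and 0.26 in control for Timp3.

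**Figure D4:**
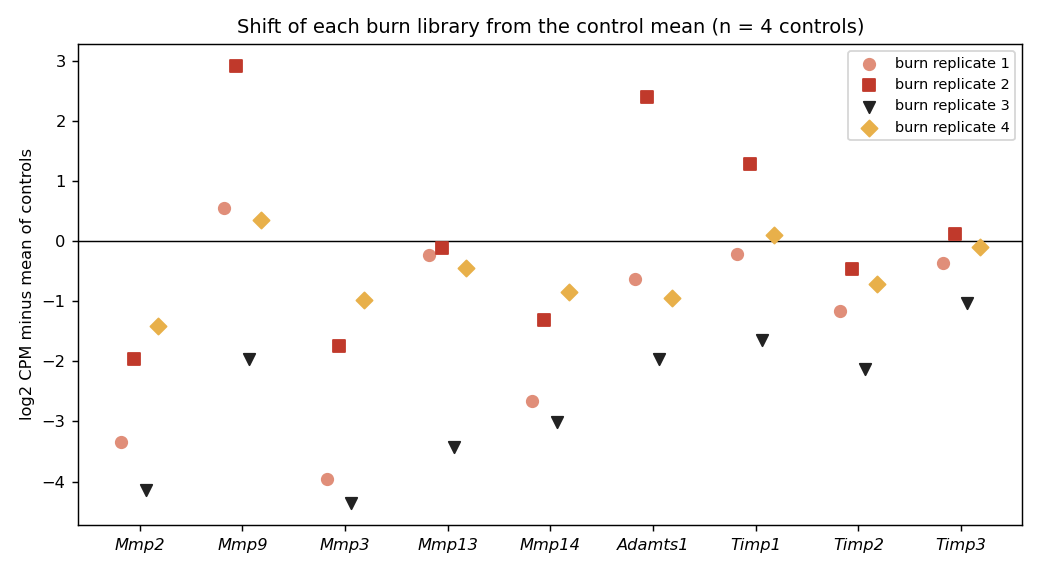
Log2 CPM of each burn library minus the mean of the 4 control libraries, for the 9 genes along the horizontal axis, 1 marker shape per burn replicate. Burn replicate 3 (black triangles) is lowest for every gene under TMM scaling, and burn replicate 2 (red squares) reaches 2.91 for Mmp9 and 2.39 for Adamts1. All markers of Mmp2, Mmp3, Mmp13, Mmp14 and Timp2 lie below 0.

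Likeness of profiles over the 8 libraries was measured as the root mean square difference of log2 CPM after centring each gene. Mmp2 and Mmp3 were each other's nearest member, at 0.334 log2 units, and 23 of all genes tested lay nearer to Mmp2 than Mmp3 did, while 4 lay nearer to Mmp3 than Mmp2 did. Mmp2 was also the member nearest to Mmp14, at 0.444 log2 units, with 126 genes nearer. The member nearest to Mmp9 was Adamts1, at 0.632 log2 units with 29 genes nearer. The member nearest to Adamts1 was Timp1, at 0.575 with 48 genes nearer, but that nearest to Timp1 was Timp3, at 0.494 with 441 genes nearer. For Mmp13 it was Timp2, at 0.966 with 695 genes nearer. Timp2 and Timp3 were each other's nearest member at 0.419, but 2819 genes lay nearer to Timp3 than Timp2 did.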

How the data were processed

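Poly(A)-enriched RNA from 4 burn and 4 control skin libraries was analysed. The authors deposited raw read counts as whole numbers for Ensembl rat genes, in a table with a column for each library and no normalisation, per the file headers and values. Tools listed in the submitters' processing notes are TopHat2 2.0.9, HTSeq 0.5.4p3, edgeR, limma and R 3.0.1, with build Rnor_5.0. Their roles, the annotation release and the strand setting were not given in those sources. Groups came from the treatment label, and replicate numbers follow accession order and pair nothing. Rows without a gene name numbered 0.

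The whole table was fitted with edgeR 4.0.16 in R 4.3.3 (quasi-likelihood test, robust dispersion, TMM factors, default expression filter, group as the only term), which left 14240 genes, all 9 members among them. Two-sided p-values were adjusted over all of them by Benjamini-Hochberg. The SE is the log2 fold change over the square root of the F statistic. The 95% interval uses that SE and the fit's degrees of freedom. The procedure was tested on simulated data, where it recovered 73.0% of 4-fold and 96.0% of 16-fold changes. It made 6 false calls among 13865 unchanged genes. The simulation gave burn and control the same dispersion, whereas the SD was larger in burn for 84.0% of all genes tested. Count ratios used a prior count of 0.5. Alternatives used DESeq2 1.42.0, limma 3.58.1 and sva 3.50.0, other scalings and filters, and each library left out. All 9 members were named whatever their values. The members, lists and pairs were chosen with earlier results of these data known. Depth was 13693811 to 26837925 counts per library, and limits at 0 counts cover counting error only. Promoters came from RefSeq (GRCr8), another build than that of the counts.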

Additional observations from a re-analysis of the deposited data

Results flagged for a closer look

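Values of each gene and each ratio were searched for a library that lay far from the rest of its group. Of 28 screens 3 picked a library, where chance picks about 1 in 20. For Mmp13 it was burn replicate 3, at -3.37 log2 CPM, which stands for 0 counts and depends on the prior count of 2. For the log2 ratio of Mmp9 to Timp1 it was control replicate 1, at -4.68, with the other control libraries at -3.30 to -3.09. For the log2 ratio of Adamts1 to Timp3 it was control replicate 2, at -0.50, with the other control libraries at -1.45 to -1.35. No explanation was tested for these values.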

How the results depend on the processing

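No paired analysis was possible because the labels tie no paw to an animal and replicate numbers follow accession order. The number of members called lower was 4 (Mmp2, Mmp3, Mmp14 and Timp2) with library size only, the DESeq2 Wald test, voom with sample quality weights or 1 surrogate variable, and 0 at an adjusted p under 0.01. Those settings called 15.01%, 15.5%, 14.96% and 21.0% of all genes lower, and the stricter adjusted p under 0.01 called 1.88% of them lower. Refits that each left out 1 library gave 0 to 3 members lower, with 0 without burn replicate 1, control replicate 2 or control replicate 4, where 5.52%, 3.75% and 4.68% of all genes were called lower with fewer samples in each. The count was 1 without control replicate 1 or 3, where 4.84% and 5.79% were. It was 3 without burn replicate 2, 3 or 4, where 12.4%, 13.3% and 8.05% were. No setting run called a member higher, though DESeq2 gave Adamts1 no adjusted p. The log2 fold changes of Mmp2, Mmp3, Mmp13, Mmp14, Timp2 and Timp3 kept their sign under every setting run; Mmp13 was not among the genes kept by the filter of 1 CPM in 4 libraries. Across settings the adjusted p ran from 8.02e-05 to 0.0550 for Mmp2 and from 0.00168 to 0.0913 for Mmp14 over edgeR, limma and DESeq2. The sign of Adamts1 turned to -0.30 by limma-voom, -0.32 with voom and sample quality weights and -0.20 with 1 surrogate variable. That of Timp1 turned to -0.17 with library size only and by limma-voom, and to -0.21 with 1 surrogate variable. With library size only, all genes tested had a median of -0.15 on that scale, against 0.06 with TMM. With 1 library left out the log2 fold change ranged from -0.23 to 1.62 for Mmp9, -1.20 to 1.00 for Adamts1 and -0.49 to 0.47 for Timp1. A prior count of 5 moved no ratio across its threshold. With 1 library left out, the difference in log2 ratio ranged from -1.89 to -1.40 for Mmp2 over Timp2, -1.08 to -0.62 for Mmp14 over Timp2, 0.21 to 0.91 for Mmp9 over Timp1, where it was 0.576 with all libraries and lowest without control replicate 1 or burn replicate 2, -3.17 to -2.28 for Mmp3 over Timp1 and -0.68 to 0.38 for Adamts1 over Timp3. Without burn replicate 4 Mmp2 over Timp2, Mmp14 over Timp2 and Mmp3 over Timp1 reached an adjusted exact permutation p of 0.0476, and without burn replicate 2 Mmp2 over Timp2, Mmp3 over Timp1 and Adamts1 over Timp3 did. The cause of these changes was not tested, and each refit with 1 library left out also held fewer samples. Mmp13 had the fewest counts of the 9 members, 33 counts over the burn libraries and 119 over the control libraries.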
